A study of Mus musculus with 6 samples.

Results

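The genes described here were the SOCS (suppressor of cytokine signalling) family, Socs1 to Socs7 and Cish, selected by symbol whatever their values. All 8 were found among the 18182 genes listed in at least 1 library, of which 17031 had a symbol. The cells came from Lewis lung carcinoma (LLC), a mouse lung cancer line derived from a C57BL/6 tumour, that carried red fluorescent protein (RFP). Wild type C57BL/6 mice received LLC-RFP cells under the skin, either with no other cells (LLC alone, 3 libraries) or together with bone marrow-derived mesenchymal stem cells (LLC with BMSCs, 3 libraries). RFP-positive cells were sorted from the primary tumours by flow cytometry and their polyadenylated RNA was sequenced. The mice were immunocompetent, and host cells could be present in both kinds of tumour. The study's animal methods name young female C57BL/6 mice for tumours of LLC-luciferase cells, and the sources used here do not give the age or sex of the mice that received LLC-RFP cells or the number of mice behind each library. The p-values below measure only the spread between these libraries.

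SOCS proteins are the feedback brake of cytokine signalling. A cytokine receptor activates JAK kinases, which phosphorylate STAT transcription factors, and the STATs switch on SOCS genes among their targets. The SOCS proteins then bind the receptor or the JAK through an SH2 domain, and their carboxy-terminal SOCS box recruits elongins B and C, cullin 5 and a RING protein into an E3 ubiquitin ligase. Socs3 is the classical STAT3 target that binds gp130 and JAKs, Socs1 is the main inhibitor of interferon signalling, and Cish and Socs2 are targets of STAT5 downstream of growth hormone, prolactin and related receptors. Socs4 to Socs7 have long amino-terminal parts and are tied more to growth factor and insulin receptors than to JAKs.

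The sequences before the start of Socs1 and Socs3 are shown because Socs3 rose while Socs1 did not pass the test. Each also carries the letters of a different element. The choice was made after the values were seen, and whether the letters bear on the levels was not tested. Socs1 lies on chromosome 16 and its stretch is chr16:10785537-10785786 on the minus strand, and the stretch of Socs3, on chromosome 11, is chr11:117969452-117969616 on the minus strand. Both were copied from RefSeq for GRCm38.p6, a later build than the mm8 build that the submitters' processing notes name, and run from 250 bases before the start. The Socs3 stretch ends before an exon of another annotated transcript of the gene. The annotated span of Socs3 is chr11:117966079-117970047, so the stretch lies within it. It precedes the RefSeq start used here and is not upstream of the whole annotated gene. Capitals mark matches.

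Socs1: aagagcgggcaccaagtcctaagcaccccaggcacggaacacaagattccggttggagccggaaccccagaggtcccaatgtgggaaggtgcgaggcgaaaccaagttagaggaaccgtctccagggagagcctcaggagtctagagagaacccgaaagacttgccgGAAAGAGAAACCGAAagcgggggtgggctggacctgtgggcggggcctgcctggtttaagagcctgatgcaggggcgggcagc
Socs3: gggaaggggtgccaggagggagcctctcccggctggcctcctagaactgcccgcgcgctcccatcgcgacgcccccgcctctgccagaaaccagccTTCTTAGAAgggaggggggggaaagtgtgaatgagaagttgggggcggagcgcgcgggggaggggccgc

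The capitals in Socs3 are 1 match to TTCNNNGAA, the letters of the interferon-gamma activated site bound by STAT dimers, at bases -154 to -146 from the start. Those in Socs1 are 2 overlapping matches to GAAANNGAA, letters shared by interferon-stimulated response elements, at bases -83 to -75 and -77 to -69. Both strands were searched in the 250 bases before the start. TTCNNNGAA reads the same on both strands and was found in 7.02% of 32851 RefSeq promoters, and GAAANNGAA, or TTCNNTTTC on the other strand, in 7.13%. RefSeq sequences were searched for 4 of the 8 genes, and those of Socs4 and Cish held neither set of letters. Socs6, on chromosome 18, was left out of this search. Most of the Cish window lay at or past the first base of an annotated exon of that gene. The absence of the letters there therefore does not cover a full promoter of Cish. These are letter matches only, and binding was not measured.

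Socs3 was the gene of the family that differed most. Its level was 7.17, 7.37 and 8.05 FPKM (fragments per length of transcript and size of library) in the LLC alone libraries and 33.3, 31.0 and 30.2 FPKM in the LLC with BMSCs libraries. Every library with BMSCs lay far above every library of LLC alone, and the spread within each group was small, at 7.53 ± 0.461 and 31.5 ± 1.6 FPKM (mean ± SD, n = 3 each). The fitted fold was 4.12 with a 95% interval of 3.66 to 4.65 (log2 fold change 2.04, SE 0.074, adjusted p = 6.64e-07, edgeR's quasi-likelihood test with Benjamini-Hochberg adjustment over 13353 genes). Of all tested genes, 3.89% had a larger log2 fold change. The gene was represented by 1 transcript of 2742 bases and by 659 to 993 counts in LLC alone and 3537 to 3965 counts in LLC with BMSCs.

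Cish rose as well, at a level far below that of Socs3. It was measured at 0.37, 0.33 and 0.30 FPKM in LLC alone and at 0.72, 0.48 and 0.50 FPKM in LLC with BMSCs. The groups did not overlap, but LLC with BMSCs replicate 1 stood above its partners. The log2 fold change was 0.73 (SE 0.20, adjusted p = 0.0151, edgeR), a fold of 1.66 with a 95% interval of 1.19 to 2.30, and without LLC with BMSCs replicate 1 it was 0.52 (adjusted p = 0.0375). Between 33 and 93 counts per library stood behind these values. Exons of Cish, at chr9:107296026-107302784 in GRCm38, overlap those of the annotated pseudogene Gm17040 and of Gm17041 on the opposite strand. The sources used here do not say whether counting used the strand, so reads of Cish and of these neighbours cannot be told apart.

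Across the family, 2 of the 7 tested genes were higher in LLC with BMSCs and 0 were lower. Over all 13353 tested genes, 31.5% were called higher and 31.3% lower, so the share of the family called higher was near the background. No family gene was lower at an unadjusted p under 0.05 either, and DESeq2 called 0 lower. The FPKM values of 4 of the 7 tested genes did not overlap between the groups and were higher with BMSCs, beside 37% of all tested genes. The 7 genes had a median of 0.11 on the log2 fold change scale, and all tested genes one of 0.012.

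**Figure D1:**
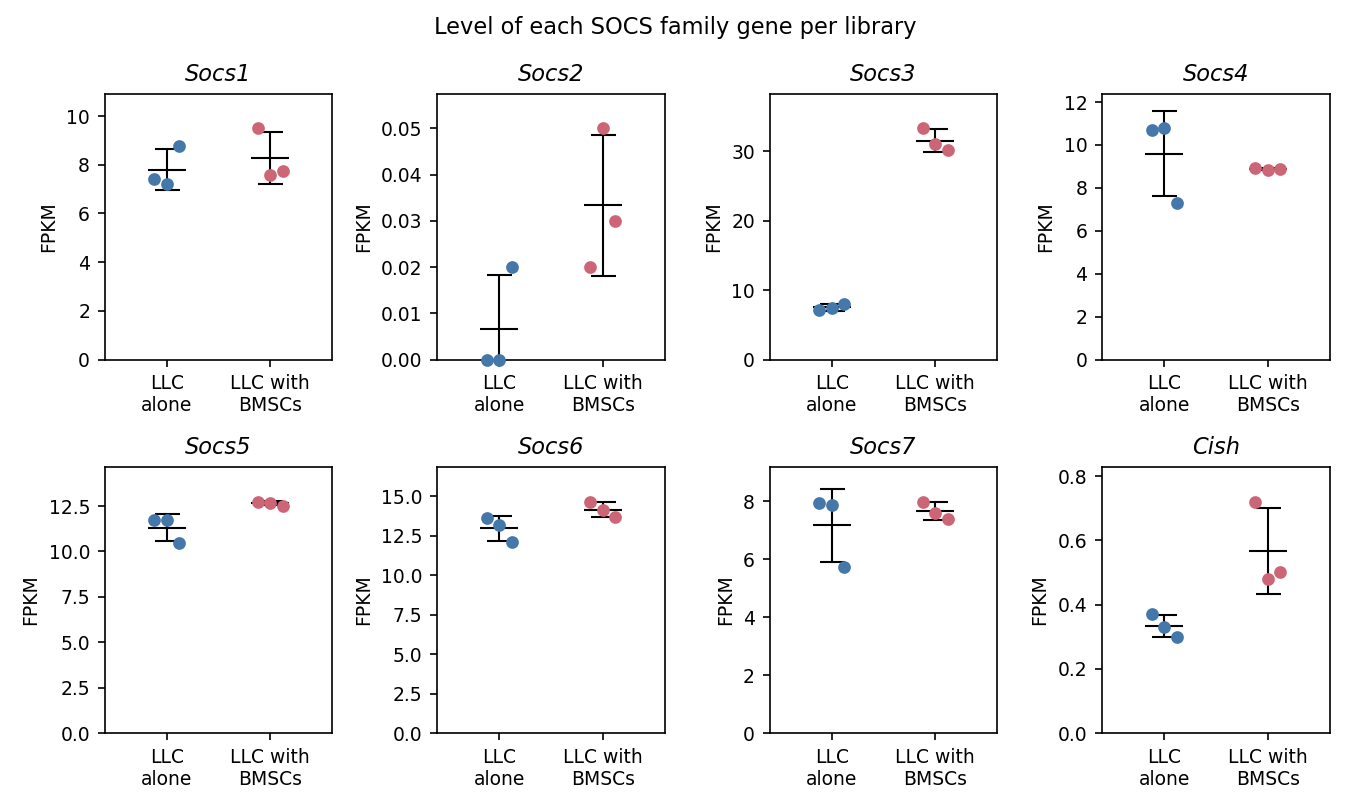
FPKM of each SOCS family gene in the 3 LLC alone and 3 LLC with BMSCs libraries, 1 panel per gene with its own axis from 0. Points are libraries, and bars are the mean ± SD. Socs3 moved from 7.17 to 8.05 FPKM up to 30.2 to 33.3 FPKM, while Socs1 and Socs7 overlapped between the groups.

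Socs1 did not pass the test. Its level was 7.42, 7.20 and 8.77 FPKM in LLC alone and 9.50, 7.57 and 7.74 FPKM in LLC with BMSCs, with group means of 7.80 ± 0.850 and 8.27 ± 1.07 FPKM (SD, n = 3). The ranges overlapped, and the highest library of each group stood apart from the other two. The fold was 1.03 with a 95% interval of 0.846 to 1.26 (adjusted p = 0.766, edgeR). Libraries differed in their balance of short and long transcripts, and LLC alone replicate 3 stood apart in this, with genes of short transcripts read high (median deviation of 0.31 over the shortest of 5 equal classes, log2 scale) and those of long transcripts read low (-0.37 in the class of the longest). Socs1 is short, at 1269 bases, and with each library's trend over transcript length removed its log2 fold change was 0.29 (adjusted p = 0.0394), which passed the threshold.

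Reads of Socs1 were divided between transcripts of 1340 and 1220 bases. The longer one was given 3.59, 3.55 and 3.78 FPKM in LLC alone and 3.40, 3.54 and 1.65 FPKM in LLC with BMSCs, and the shorter one 3.83, 3.65 and 4.99 FPKM and 6.10, 4.04 and 6.09 FPKM. The shorter transcript carried 50.7% to 56.9% of the gene in LLC alone and 53.3% to 78.7% in LLC with BMSCs. The ranges overlapped, with LLC with BMSCs replicate 2 close to the LLC alone libraries.

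Socs2 was almost without reads. It had 0, 0 and 2 counts in LLC alone and 2, 5 and 3 counts in LLC with BMSCs, which is 0 to 0.05 FPKM. It did not pass the filter on low counts and was not tested, and a fold is not given. A difference in Socs2 was not detectable at this depth, where 3 counts equalled 0.065 to 0.0896 CPM (counts scaled to library size).

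None of the SOCS genes with long amino-terminal parts passed the test, and Socs6 and Socs5 had the highest mean levels of the family in LLC alone. Socs6, which binds receptor tyrosine kinases and insulin receptor substrates, was at 13.7, 13.2 and 12.1 FPKM in LLC alone and 14.7, 14.1 and 13.7 FPKM in LLC with BMSCs. Socs5, an inhibitor of interleukin-4 and EGF receptor signalling, was at 11.7, 11.7 and 10.5 FPKM and at 12.7, 12.7 and 12.5 FPKM. In both genes every library with BMSCs was above every library of LLC alone, by small margins. The folds were 1.08 with a 95% interval of 0.969 to 1.19 for Socs6 (adjusted p = 0.188, edgeR) and 1.09 with an interval of 0.990 to 1.21 for Socs5 (adjusted p = 0.103, edgeR). Neither passed the threshold.

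Socs4, another inhibitor tied to EGF receptor signalling, was at 10.7, 10.8 and 7.32 FPKM in LLC alone and 8.92, 8.83 and 8.89 FPKM in LLC with BMSCs. Socs7, which binds adaptor proteins such as Nck, was at 7.93, 7.89 and 5.73 FPKM and at 7.99, 7.59 and 7.38 FPKM. In both genes LLC alone replicate 3 was the lowest library. The fold of Socs4 was 0.915 (95% interval 0.731 to 1.14, adjusted p = 0.441, edgeR) and that of Socs7 was 1.05 (0.858 to 1.29, adjusted p = 0.641, edgeR). Without LLC alone replicate 3, Socs4 was at -0.29 on the log2 scale (adjusted p = 0.00115) and passed the threshold as lower. With the trend over length removed, Socs7, the longest gene of the family at 7221 bases, turned to -0.19 (adjusted p = 0.00555) and passed it as lower.

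**Figure D2:**
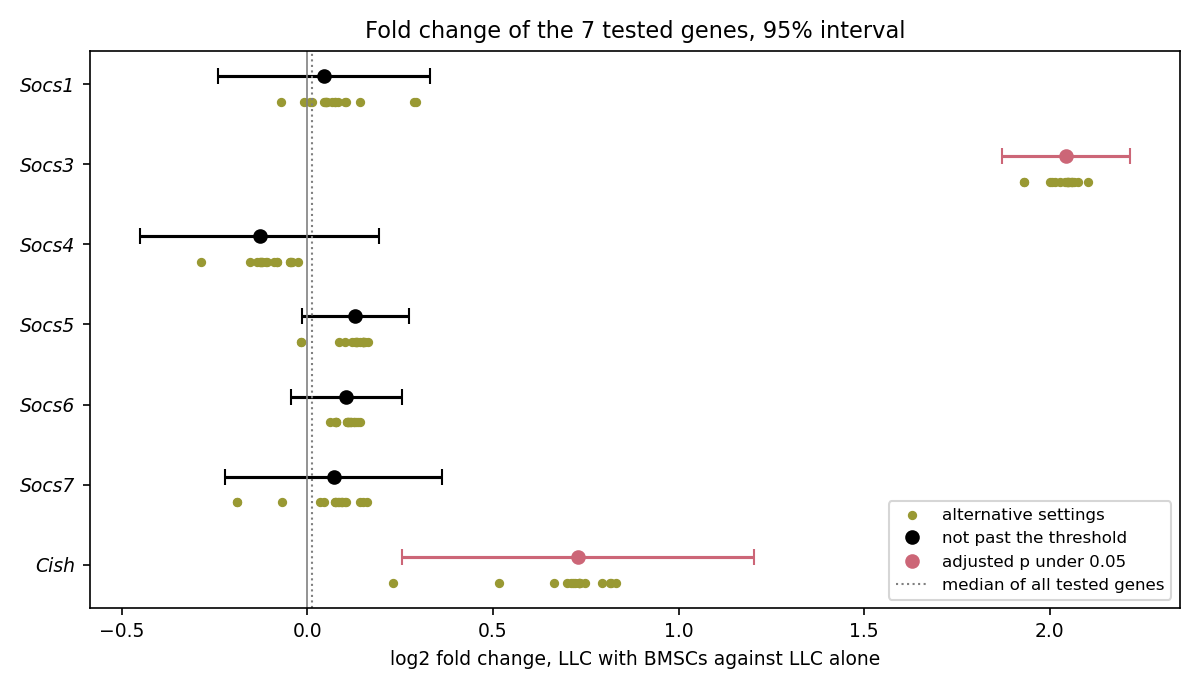
Log2 fold change of the 7 tested genes, LLC with BMSCs against LLC alone, with the 95% interval as bars, red where the adjusted p was under 0.05, and the values under the other settings as small points below. The dotted line is the median of all tested genes. Socs3 stayed between 1.93 and 2.10 and Cish above 0 under every setting that tested them, while the points of Socs1, Socs5 and Socs7 lay on both sides of 0.

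The order of the family changed at its top. In LLC alone the genes ranked Socs6, Socs5, Socs4, Socs1, Socs3, Socs7, Cish and Socs2 by mean FPKM, and the ranges of neighbours overlapped from Socs5 down to Socs7. In LLC with BMSCs Socs3 came first, at 31.5 FPKM against 14.2 FPKM for Socs6, and its range lay clear of all others. Below it the order of Socs6, Socs5, Socs4, Socs1, Socs7, Cish and Socs2 was as before, with overlap between Socs4 and Socs1 and between Socs1 and Socs7. Cish and Socs2 were lowest in both groups and were separate from each other and from the rest.

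The summed level of the 8 genes was 59.0, 58.5 and 52.7 FPKM in LLC alone and 87.8, 82.4 and 81.0 FPKM in LLC with BMSCs. Without Socs3 it was 49.2 ± 3.93 and 52.2 ± 2.04 FPKM (SD, n = 3). The FPKM of all genes summed to 515662 to 579328 in LLC alone and 470940 to 489275 in LLC with BMSCs. Sums of FPKM are therefore not on the same scale in the groups, while shares within a library do not depend on this. Socs3 held 12.2%, 12.6% and 15.3% of the summed FPKM in LLC alone and 37.9%, 37.7% and 37.3% in LLC with BMSCs. Most of the gain in the summed level was therefore that of a single gene. The share of every other gene with more than 1% of the sum was lower with BMSCs, as follows from a sum that Socs3 raised. No test was made on these shares.

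**Figure D3:**
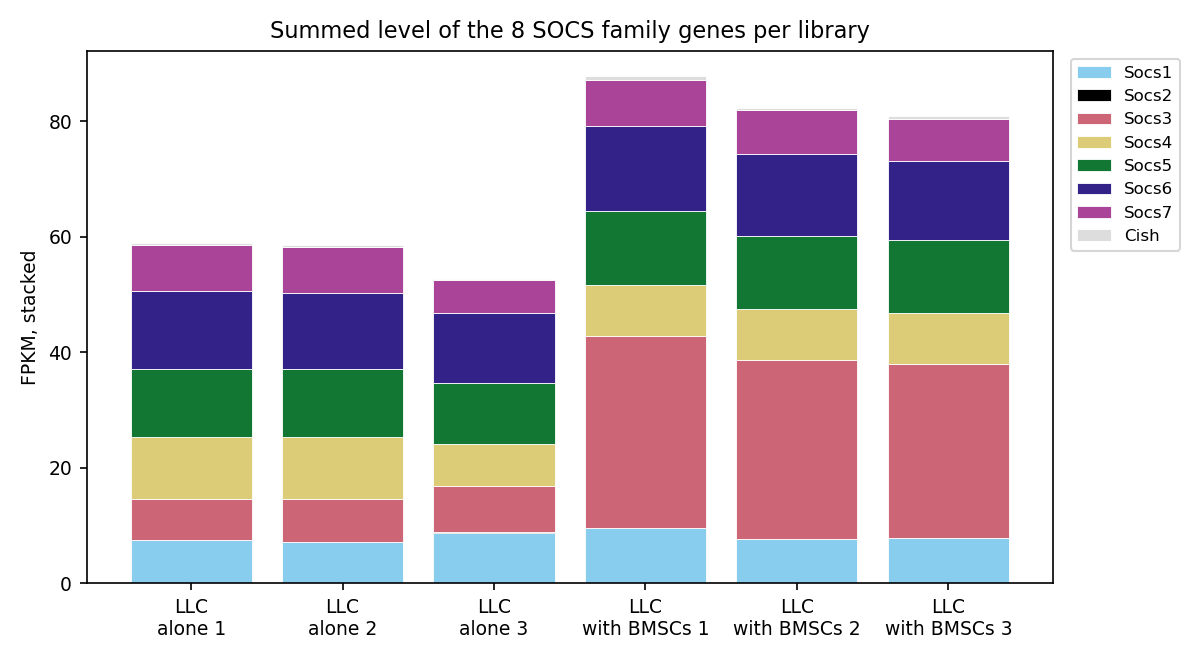
FPKM of the 8 SOCS family genes stacked for each library, with LLC alone on the left and LLC with BMSCs on the right. The Socs3 segment grew from 12.2% to 15.3% of the bar to 37.3% to 37.9%, and the summed level from 52.7 to 59.0 FPKM up to 81.0 to 87.8 FPKM.

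A ratio of each feedback gene to its STAT shows whether the pair moved in step. The level of Socs3 was 0.629, 0.607 and 0.769 of that of Stat3 in LLC alone and 1.20, 1.18 and 1.14 of it in LLC with BMSCs. Stat3 itself rose from 11.4, 12.2 and 10.5 FPKM to 27.8, 26.3 and 26.4 FPKM (log2 fold change 1.22, SE 0.070, adjusted p = 5.88e-06, edgeR), so that Socs3 gained on a STAT that was also higher. The difference in the log2 ratio was 0.82, and the groups did not overlap. Cish was 0.0376, 0.0320 and 0.0331 of the summed level of Stat5a and Stat5b in LLC alone and 0.0641, 0.0443 and 0.0456 of it in LLC with BMSCs, a difference of 0.57 in the log2 ratio, again without overlap.

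Stat2, a subunit of the transcription factor of type I interferon signalling, rose while Socs1 did not pass the test. The ratio of Socs1 to Stat2 was 4.08, 4.05 and 5.19 in LLC alone and 0.428, 0.368 and 0.363 in LLC with BMSCs. This was a difference of -3.52 in the log2 ratio. Stat2 was at 1.82, 1.78 and 1.69 FPKM and at 22.2, 20.6 and 21.3 FPKM (log2 fold change 3.58, SE 0.067, adjusted p = 7.59e-08, edgeR). The exact two-sided permutation test gave p = 0.1 for each of the 3 ratios, the smallest that 3 libraries against 3 allow, and 0.1 after Benjamini-Hochberg adjustment over the 3. No ratio was formed for Socs2, which was listed at 0 in 2 of the 3 LLC alone libraries. Exons of Stat3 and Stat5a overlap on opposite strands.

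The kinases and transcription factors above the family were mostly higher with BMSCs. Of the 10 JAK and STAT genes reported here, 9 were tested, 8 were higher at an adjusted p under 0.05 and 0 were lower, all 9 fitted values being above 0. This was 88.9% of the tested genes of the list, beside 31.5% of all tested genes. Their median was 0.65 on the log2 scale beside 0.012 over all tested genes. After Stat2 the largest change was that of Jak3, a kinase of the common gamma chain receptors, with a log2 fold change of 1.66 (2.90 to 3.03 FPKM against 9.94 to 11.5 FPKM). Jak2, which serves growth hormone and gp130 receptors, was at 4.54 to 5.32 FPKM against 8.06 to 8.32 FPKM, and Tyk2, an interferon receptor kinase, at 4.38 to 5.15 FPKM against 7.54 to 7.81 FPKM. Stat6 rose by a log2 fold change of 0.36. Jak1 (0.27) and Stat5a (0.25) passed by a small margin and did not pass once the length trend was removed, when 6 of the 9 were higher. Stat5b had a value of 0.15 (adjusted p = 0.0778), and Stat4 was at 0.09 FPKM or less and was not tested.

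Among the receptors that SOCS proteins or Cish act on, 26 of 30 were tested, 18 were higher (69.2%) and 3 lower (11.5%), with a median of 0.64. Of all tested genes, 31.5% were higher and 31.3% lower. With the length trend removed, 15 receptors were higher and 3 lower. Only 14 of the listed receptors had a mean of 1 FPKM or more in LLC alone, and 15 with BMSCs. Il10ra, Csf2rb, Il7r and Csf3r were at 0.02 FPKM or less in LLC alone. They passed the filter only through the libraries with BMSCs and could only be called higher. The oncostatin M receptor gene Osmr was at 1.51, 1.69 and 1.33 FPKM in LLC alone and 6.71, 6.13 and 5.97 FPKM in LLC with BMSCs, a log2 fold change of 2.04 (SE 0.10). Il6st, which encodes gp130, the receptor subunit that Socs3 binds, was at 14.7, 15.0 and 8.92 FPKM and at 22.6, 22.2 and 22.4 FPKM (0.78, SE 0.18). LLC alone replicate 3 was again the low library, and the value with the length trend removed was 0.59. Ifngr2, a chain of the interferon-gamma receptor, rose by a log2 fold change of 1.14 to between 38.5 and 40.9 FPKM, and Il2rg, the common gamma chain, rose from 0.21 to 0.26 FPKM to 1.95 to 2.12 FPKM. Il11ra1, the interleukin-11 receptor, fell by 0.65 on the log2 scale.

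The ligands of these receptors moved in both directions, with 5 of 14 tested genes higher (35.7%), 6 lower (42.9%) and a median of -0.085. These shares were not far from the 31.5% higher and 31.3% lower of all tested genes. Lif, a gp130 cytokine, rose from 0.87, 1.05 and 0.94 FPKM to 3.62, 3.31 and 3.23 FPKM (log2 fold change 1.81, SE 0.10). Il6 went the other way, from 8.96, 8.10 and 10.2 FPKM to 4.22, 4.36 and 4.52 FPKM (-1.08, SE 0.11). The granulocyte colony-stimulating factor gene Csf3 was at 0.02 to 0.07 FPKM in LLC alone and 2.62 to 3.47 FPKM in LLC with BMSCs. Il10, also called higher, was listed at 0 in every LLC alone library and at 0.24 to 0.29 FPKM with BMSCs. Csf3 and Il10 passed the filter only through the libraries with BMSCs and could only be called higher. Ctf1 (-0.66) and Kitl (-1.49) were lower.

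The machinery that the SOCS box recruits did not rise with Socs3. Of 11 tested genes 1 was higher (9.09%) and 4 were lower (36.4%), with a median of -0.11, beside 31.5% and 31.3% of all tested genes. The elongin B and C genes, listed as Tceb2 and Tceb1, had log2 fold changes of -0.43 (adjusted p = 0.0163, edgeR) and -0.50 (adjusted p = 0.00329), Rbx1 -0.35 and Nedd8, the ubiquitin-like activator of cullins, -0.49. Arih2, a ligase that works with cullin 5, was higher at 0.38. Cul5 (0.16), Rnf7 (-0.092), Cul2 (-0.078), Ube2f (-0.11), Ube2m (-0.13) and Cand1 (0.19) did not pass. The genes called lower were also high in LLC alone replicate 3. With the length trend removed Tceb2 was at -0.0067 (adjusted p = 0.904) and Nedd8 at -0.083 (adjusted p = 0.226), and 3 genes were higher and 3 lower.

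Other SOCS box proteins, which share only the ligase module, were called higher in 5 (29.4%) and lower in 7 (41.2%) of 17 tested genes, again not far from all tested genes, with a median of -0.17 that turned to 0.053 with the length trend removed. Spsb1, a SOCS box protein that targets inducible nitric oxide synthase, was at 2.59, 2.48 and 2.57 FPKM in LLC alone and 10.2, 9.26 and 8.93 FPKM in LLC with BMSCs, a log2 fold change of 1.87 (SE 0.076). Asb7 (0.75) was also higher, and Asb3 (-0.58), Spsb2 (-0.65) and Lrrc41 (-0.53) were lower.

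Inhibitors of the pathway outside the SOCS family were called higher in 4 (28.6%) and lower in 3 (21.4%) of 14 tested genes, with a median of 0.023. This was beside 31.5% higher and 31.3% lower of all tested genes. Usp18, which blocks the type I interferon receptor, was at 0.13 to 0.20 FPKM in LLC alone and 5.02 to 6.11 FPKM in LLC with BMSCs (log2 fold change 5.02, SE 0.18). Slfn2 (3.68) and Ptpn6, the phosphatase SHP-1 (1.04), were higher too. So was Ptprc, the CD45 gene, at 0.01 to 0.05 FPKM in LLC alone and 0.41 to 0.49 FPKM in LLC with BMSCs. It passed the filter on low counts only through the libraries with BMSCs. Pias3, an inhibitor of STAT3, was lower at -0.39 (adjusted p = 0.00621, edgeR). Cbl had a value of 0.85 (adjusted p = 0.126) and was at 1.74 FPKM in LLC alone replicate 3 and at 7.02 FPKM or more elsewhere.

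Genes that STATs commonly induce were higher in 13 (50%) and lower in 8 (30.8%) of 26 tested genes, with a median of 0.30. The shares over all tested genes were 31.5% higher and 31.3% lower. Irf1, an interferon and STAT target, was at 7.57, 8.18 and 7.63 FPKM in LLC alone and 46.1, 48.2 and 47.7 FPKM in LLC with BMSCs (log2 fold change 2.58, SE 0.061), while Socs1, another gene of that kind, had a value of 0.045. Bcl3 was higher by 2.79. Irf9 was at 0.10, 0 and 0 FPKM and at 6.34, 4.59 and 4.48 FPKM, and Gbp2 at 0.15 to 0.26 FPKM and 20.2 to 22.6 FPKM. Irf9 passed the filter on low counts only through the libraries with BMSCs and could only be called higher. Among the 8 lower genes, named after their values were seen, were the growth regulator Myc, at 677.3 to 686.9 FPKM in LLC alone and 283.6 to 321.5 FPKM in LLC with BMSCs (-1.22), the kinase Pim2 (-0.96), the repressor Bcl6 (-0.74) and Bcl2l1 (-0.52), an inhibitor of apoptosis.

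Of the targets of SOCS proteins outside the JAKs, 9 of 12 tested genes were higher (75%) and 3 lower (25%), with a median of 0.41. Of all tested genes, 31.5% were higher and 31.3% lower. The higher ones include Map3k5, which was near the floor at 0.02 FPKM or less in LLC alone and 0.05 to 0.06 FPKM with BMSCs. Map3k5 passed the filter only through the libraries with BMSCs and could only be called higher. The insulin receptor substrates Irs1 (-0.72) and Irs2 (-1.21) and the adaptor Nck1 (-0.55) were the ones lower, and Tirap (0.58) and Traf6 (0.58) were among those higher.

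**Figure D4:**
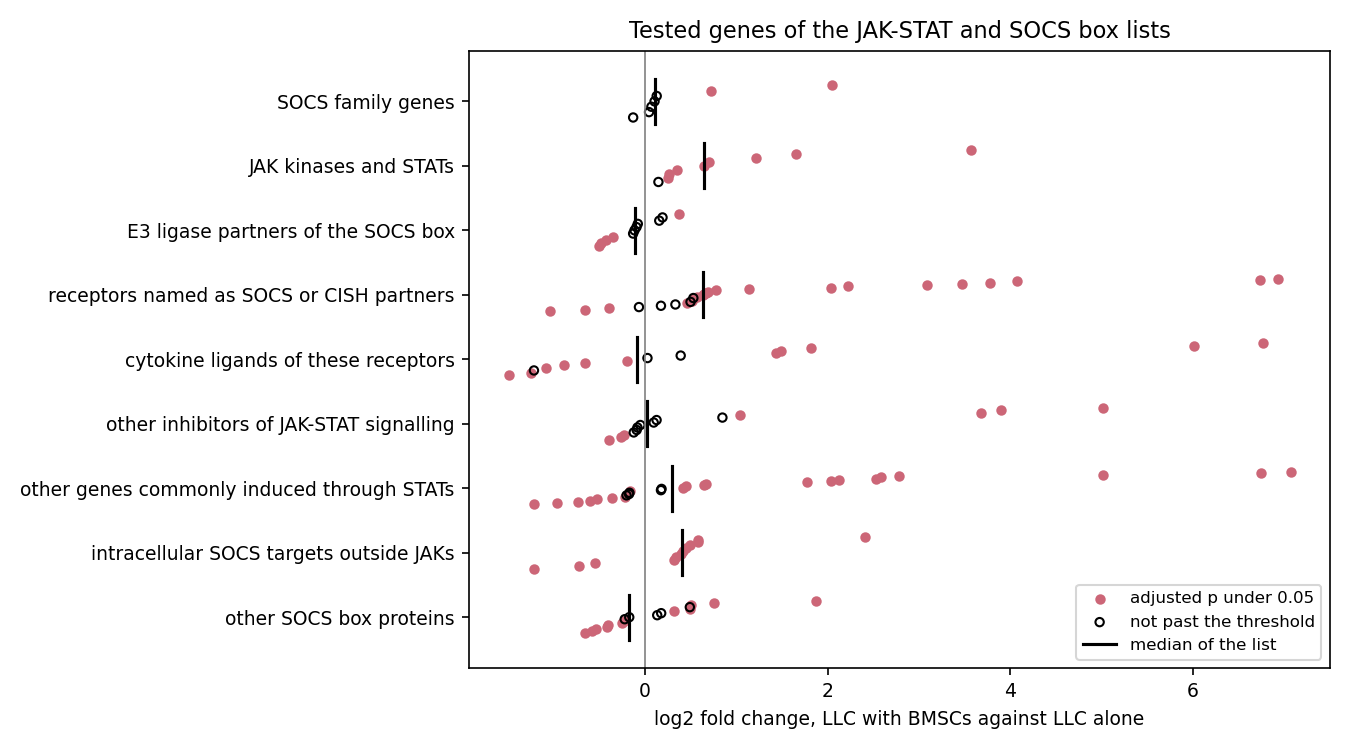
Log2 fold change, LLC with BMSCs against LLC alone, of each tested gene in the SOCS family and in 8 lists around it. Filled points had an adjusted p under 0.05, open points did not, and bars are list medians. JAK and STAT genes all lie above 0 with a median of 0.65, while the E3 ligase partners lie between -0.50 and 0.38.

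Some markers of other cells differed between the groups, as Socs3 did, and others did not. Of 10 neutrophil markers 6 were tested and 6 were higher. Their summed level was 0.29 to 0.61 FPKM in LLC alone and 40.6 to 49.4 FPKM in LLC with BMSCs, nearly all from S100a8 and S100a9. Markers at or near 0 in LLC alone, such as S100a9 and Mpo, could pass the filter on low counts only through the libraries with BMSCs. For such genes higher was the only call possible, so these counts of calls are a description. Elane and Mpo were listed at 0 in every LLC alone library and reached 0.30 FPKM at most with BMSCs, and Ly6g was at 0.11 FPKM or less throughout. Of 10 macrophage markers 8 were tested, 6 were higher and 1 lower, with sums of 17.0 to 20.5 and 20.3 to 21.7 FPKM. Of the more abundant ones, Cd68 fell by 0.89 on the log2 scale, from 5.14 to 6.12 FPKM to 2.69 to 3.40 FPKM, and Cd14 was at 8.91 to 10.6 and 9.29 to 11.01 FPKM and did not pass. Adgre1 was listed at 0 in every LLC alone library and at 0.42 to 0.56 FPKM with BMSCs, and Ptprc, the CD45 gene, at 0.01 to 0.05 and 0.41 to 0.49 FPKM. Of 10 mesenchymal stromal markers 8 were tested and 8 were higher, with sums of 47.8 to 58.0 and 125.6 to 130.4 FPKM, mostly from Col3a1. In LLC alone Col3a1 was at 36.8 to 43.6 FPKM, Pdgfra at 4.77 to 6.41 FPKM and Pdgfrb at 5.46 to 7.22 FPKM. Col1a1 was there at 0.02 FPKM or less and Dcn at 0.13 FPKM or less. Thy1 (0.03 FPKM or less in every library) and Cxcl12 (0.10 FPKM or less) were not tested. Beside these marker calls, 31.5% of all tested genes were higher and 31.3% lower.

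Lymphocyte markers summed to 0.20 FPKM or less, endothelial markers to 0.40 FPKM or less and lung club and alveolar markers to 0.13 FPKM or less in every library. Erythroid markers summed to 2.12 to 2.74 FPKM and 7.83 to 9.62 FPKM. Of the epithelial markers Krt8 was at 90.3 to 113 FPKM, while Krt18 was at 0.69 FPKM or less and Epcam and Cdh1 were at 0.04 FPKM or less, so that of these carcinoma markers Krt8 was the one at a high level. The part of other cells in the Socs3 and Cish values was not tested. In RNA from a sorted population, a gene carried by fewer cells and a gene with less RNA per cell cannot be told apart.

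The genes whose pattern over the 6 libraries was closest to each gene were found by the distance between log2 counts scaled to library size and centred on their mean, among 12706 tested genes with a symbol. For Socs3 these were Nt5e (distance 0.181, Pearson's r 0.9985, n = 6), Lcn2 (0.181) and Ttc39c (0.189), with log2 fold changes of 1.96, 2.13 and 2.15. The level of Nt5e, an ectonucleotidase gene, rose from 1.02 to 4.02 FPKM on average, and that of Lcn2, the lipocalin 2 gene, from 14.9 to 66.1 FPKM. For Cish they were R3hdm1 (0.194), 1700030J22Rik (0.196) and Ppp1r13l (0.224), all called higher. For Socs1 they were S100a11 (0.106), Rfng (0.110) and Lbp (0.122), which like Socs1 did not pass the test. The 6 points share library and depth, and the likeness is a description.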

How the data were processed

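The authors deposited, for each library, an estimated count and a length in bases for every gene and transcript, without normalization, so that a count can be a fraction. The authors also deposited FPKM values per gene and transcript, which divide by length and library total. The submitters' processing notes name HISAT, StringTie, Cufflinks and GATK and the build mm8, and the counter, its strand setting and the tool versions were not given in the sources used here. The labels name Illumina library protocols, and the paper BGISEQ-500. A series-wide FPKM table was not used here. The 6 libraries held 33476347 to 46189113 counts on genes. Levels were compared on FPKM and differences on estimated counts rounded to whole numbers, by edgeR 4.0.16 in R 4.3.3 with TMM scaling, its default filter on low counts, the quasi-likelihood test and Benjamini-Hochberg adjustment at 0.05 over 13353 genes. The fit was tested on simulated data. Standard errors are the log2 fold change over the square root of the test statistic, and intervals are 95%. Counting floors of 3 counts and intervals cover these libraries only. The log2 CPM values (counts scaled to library size) used a prior count of 2.

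The genes, the lists around them and the markers were chosen with earlier results of these data known. Of each list, the genes named were the 5 with the largest absolute log2 fold change among tested genes with a mean of at least 1 FPKM, and every JAK, STAT and E3 ligase partner; genes with other values, such as single markers, were named after their values were seen. A member of the JAK and STAT list is not reported here. The symbols stored as dates were restored from gene identifiers. Alternatives were DESeq2 1.42.0, limma 3.58.1 on FPKM with a pseudocount of 1 or 0.1 before the log2 (genes of 1 FPKM or more in 3 libraries, or all genes), scaling by upper quartile or by library size alone, no filter or 10 counts in every library, a replicate block, removal of each library's trend over transcript length (loess span 0.3), each library left out, the closest pair of libraries in each group summed, and a threshold of 0.001 joined to a log2 change of 1 in either direction. The lists were counted again under 4 of these settings, chosen after the data were seen. No set test was made. Gene positions are those of GENCODE M21 for GRCm38, since the files give no coordinates.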

Additional observations from a re-analysis of the deposited data

How the results depend on the processing

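Socs3 was called higher under all 18 alternatives in which it was fitted (log2 fold change 1.93 to 2.10, and 2.0 to 2.10 with each library left out), and Cish under all 16 in which it was tested (0.23 to 0.83, and 0.52 to 0.83 with each library left out). The lowest value of Cish is on log2(FPKM + 1), a scale that understates changes of low genes. The number of family genes higher was 1 in place of 2 with limma on log2(FPKM + 1) and on log2(FPKM + 0.1), where the filter left Cish untested, 1 with the threshold of 0.001 joined to a log2 change of 1, which only Socs3 passed, and 3 with the length trend removed, with or without the replicate block, where Socs1 also passed. It was 2 with each library left out. The number lower was 1 in place of 0 with the length trend removed and in the replicate block with the length trend removed, where Socs7 passed, and 0 to 1 with each library left out, the 1 being Socs4 without LLC alone replicate 3. Values that changed sign were those of Socs1 without LLC alone replicate 2 (-0.0082) and without LLC with BMSCs replicate 1 (-0.072 to 0.14 over the libraries left out), of Socs5 with the length trend removed (-0.017, and -0.018 with the replicate block), and of Socs7 with the length trend removed (-0.19, and -0.19 with the replicate block) and without LLC alone replicate 3 (-0.068 to 0.15 over the libraries left out). The difference in log2 ratio kept its direction under all 7 alternatives each, at 0.76 to 0.93 for Socs3 to Stat3, 0.40 to 0.66 for Cish to Stat5a and Stat5b and -3.59 to -3.40 for Socs1 to Stat2, and the gain of Socs3 in its share of the family was 23.7 to 25.2 percentage points. Over all tested genes, 3364 to 4753 were called higher at an adjusted p under 0.05 in these settings, and 910 with the threshold of 0.001 joined to a log2 change of 1.

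Libraries with the same number did not pair: their deviations correlated at 0.076, -0.106 and 0.057 over genes. The replicate block gave 2.04 for Socs3 and 0.72 for Cish and, without the removal of the length trend, changed no call. Depth limited Socs2, which was called in 0 of the 3 alternatives that tested it (adjusted p 0.0855 to 0.244).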
